A study of Caenorhabditis elegans with 12 samples.

Results

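The spe (spermatogenesis defective) and fer (fertilization defective) genes of Caenorhabditis elegans were first found through mutations that leave sperm unmade or unable to fertilize. They were followed here together with gsp-3, gsp-4 and peel-1, which act in sperm or are carried by them. Members were chosen by name from the rows shared by both deposited count tables, and 25 genes with counts matched, out of 46711 shared rows, of which 18655 held any count. All 25 were found in the WBcel235 annotation of Ensembl release 115, 14 on chromosome I, 5 on IV, 4 on V, 2 on III and 0 on X. Chromosome I thus held 56.0% of the members, against 14.6% of the 16440 protein-coding genes with counts, while 14.2% of those genes lay on X. The share on chromosome I includes gsp-3, gsp-4 and peel-1, which were added singly and all lie there.

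A hermaphrodite worm makes sperm during the last larval stage (L4) and then switches its germline to oocytes. Spermatocytes transcribe and translate the proteins a sperm will need, pack major sperm protein into a compartment called the fibrous body-membranous organelle, and lose their ribosomes when spermatids bud off. Spermatids later become motile in a step called activation, fertilize the oocyte and deliver a few proteins that the embryo uses.

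Whole mid-L4 larvae were sampled 45 h after feeding at 20 °C, and ribosome profiling counted the short mRNA fragments that translating ribosomes protect. Each of the 4 groups had replicates A, B and C (n = 3). let7_U13A larvae carried lin-41(tn1541ma480) with let-7(ma432), and the labels describe the strain as one without the downstream effects of lin-41. Its control, control_for_U13A, carried lin-41(tn1541), so the lin-41 allele differs within that pair as well as the let-7 allele. The group let7_U18A carried let-7(ma435) in the transgenic background maIs105, and its control, control_for_U18A, carried maIs105 alone. let-7 is a microRNA that times the larval-to-adult transition. Footprint counts reflect mRNA abundance and translation together, and in whole animals fewer cells of a type and less RNA per cell cannot be told apart.

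Library totals ran from 8405704 to 44950649 counts. Every let7_U13A library was deeper than every control_for_U13A library, and every let7_U18A library was shallower than every control_for_U18A library. The labels do not say whether replicates came from separate cultures, so p-values measure the spread between these samples. The biological coefficient of variation was 12.5% among U13A libraries and 8.51% among U18A libraries. Sperm-line footprints were abundant in all libraries, with summed major sperm protein (msp) genes between 18312 and 28871 CPM (counts per 1e6 counts of the library).

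The 25 members held between 0.0653% and 0.0846% of the counts of a library, and gsp-3, gsp-4 and spe-15 between 58.8% and 66.6% of the members' counts. Their summed level was 674.5, 699.0 and 669.2 CPM in let7_U13A and 717.6, 740.2 and 846.0 CPM in control_for_U13A. It was 653.1, 658.4 and 705.9 CPM in let7_U18A and 697.2, 723.5 and 718.1 CPM in control_for_U18A. In the U13A pair every mutant sum lay below every control sum, whereas in the U18A pair let7_U18A replicate C lay above 1 control library. These sums use the library total alone, without the scaling applied in the fits below. The highest sum belonged to control_for_U13A replicate C, which was also the highest of its group for 22 of the 25 members, against 60.6% of 13494 genes averaging 10 counts or more.

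Levels between genes were compared as CPM per kb of coding sequence over the 12 libraries. gsp-3 and gsp-4, 2 type 1 protein phosphatase catalytic subunits needed for sperm meiosis and motility, stood first at 184 ± 8.33 and 157 ± 7.37 CPM per kb (SD, n = 12). They are near copies of each other, so reads may be split between them, and the ratio of gsp-4 to gsp-3 counts stayed between 0.803 and 0.889. spe-11, a paternal factor that the embryo needs, followed at 65.8 ± 5.44 CPM per kb, then spe-15, a myosin VI, at 36.1 ± 3.46 CPM per kb and spe-46 at 32.4 ± 5.07 CPM per kb (SD, n = 12 each). spe-4 and spe-6 were next at 20.9 and 17.6 CPM per kb. The lowest members were spe-9 at 2.29, spe-38 at 1.61 and spe-42 at 1.03 CPM per kb, all proteins of the sperm surface that act in fertilization. Of the 24 neighbouring pairs in this order, 3 had ranges over the 12 libraries that did not overlap: gsp-3 over gsp-4, gsp-4 over spe-11 and spe-11 over spe-15. The ranges of the other neighbours overlapped, although spe-46 lay above spe-4, and spe-47 above spe-41, within each of the 12 libraries.

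**Figure D1:**
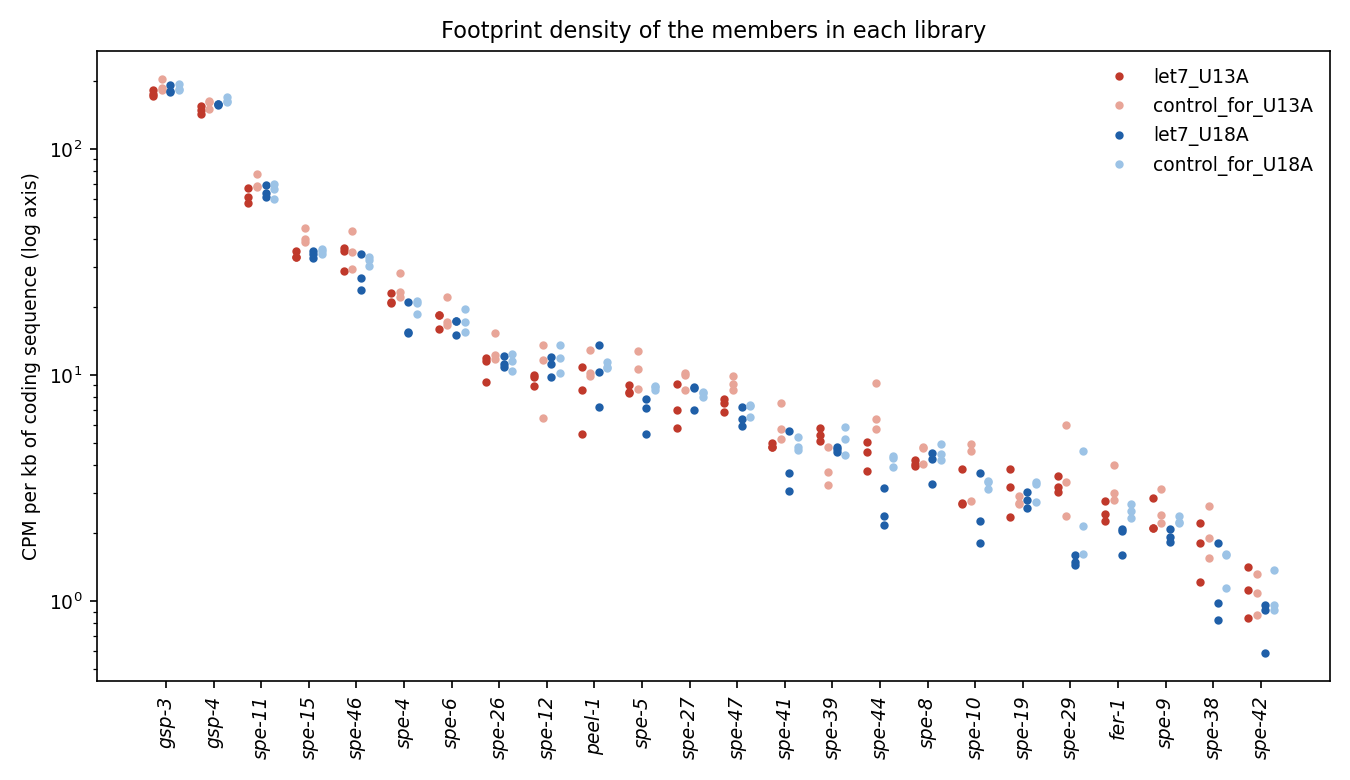
Level of 24 of the 25 members in each of the 12 libraries, in CPM per kb of coding sequence on a log axis, with members ordered by their mean and points coloured by group. gsp-3 and gsp-4 stand above the rest, the range from top to bottom runs from 184 to 1.03 CPM per kb, and the 4 groups lie close together within nearly every gene.

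Few members differed between a mutant and its control. In the quasi-likelihood test of edgeR, with Benjamini-Hochberg adjusted p-values over all genes, 24 members passed the count filter in the U13A pair and 1 of them, spe-44, was called, lower in the mutant, 4.17%, against 5.64% of all 12874 genes tested (2.57% called lower). In the U18A pair 24 members passed and spe-44 was again the 1 call, also lower, 4.17%, against 10.9% of all 13614 genes (6.75% called lower). spe-29, with 3 to 41 counts per library, passed in neither pair. All 24 of the 95% intervals in each pair lay between -1 and 1 on the log2 scale, which held for 86.0% of all genes tested in the U13A pair and for 86.7% of those in the U18A pair.

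The estimates of the members leaned below 0. They were below 0 for 21 of 24 members in the U13A pair (87.5%, against 50.7% of all genes), with a median log2 fold change of -0.15, and for 19 of 24 in the U18A pair (79.2%, against 50.9%), with a median of -0.11. The medians over all genes were -0.004 and -0.005. Between the 2 controls, which carry no let-7 allele change, 18 of 25 members were above 0, that is higher in control_for_U13A. There 28.0% of members were below 0, against 50.4% of all genes, with medians of 0.17 and -0.003. A lean of similar size thus also occurred between the controls. All 3 mutant libraries lay below all 3 control libraries for 7 members in the U13A pair (29.2%, against 12.2% of all genes). They did so for 6 members in the U18A pair (25.0%, against 19.6%), a share near the background. The reverse order held for 1 member, spe-39, in the U13A pair (4.17%, against 8.65% of genes). In the U18A pair it held for 0 members, against 8.02% of genes. These orders were read in CPM, without the scaling used in the fits. The pairs share no library, and 16 of the 24 members were below 0 in both, 0 above 0 in both and 8 on opposite sides, while 28.0% of 12820 genes tested in both pairs were below 0 in both. With 21 and 19 of 24 below 0 in the single pairs, 16 is the smallest overlap possible, so it adds nothing to those counts. The members were read in the same libraries and are not separate observations of a change. Without control_for_U13A replicate C, 17 of 24 estimates in the U13A pair were below 0 and the median was -0.12. Without let7_U18A replicate B, 14 of 24 in the U18A pair were below 0 and the median was -0.06.

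A test of the mean change over both pairs, using all 12 libraries, called 3 of the 25 members, spe-44, fer-1 and spe-5, all lower in the mutants (12.0%, against 6.05% of all 13597 genes called lower and 10.7% called in either direction). A test of the difference between the changes in the U13A and U18A pairs called 0 members in edgeR and 0 in DESeq2, against 5.58% of all genes in edgeR. At an unadjusted p under 0.05 it had 2 of 25 members, spe-15 and spe-39, a smaller share than the 2337 of all 13597 genes. A difference that misses the threshold does not show that the pairs changed alike. For the difference, 22 of 25 intervals lay between -1 and 1 (88.0%, against 71.7% of all genes tested).

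**Figure D2:**
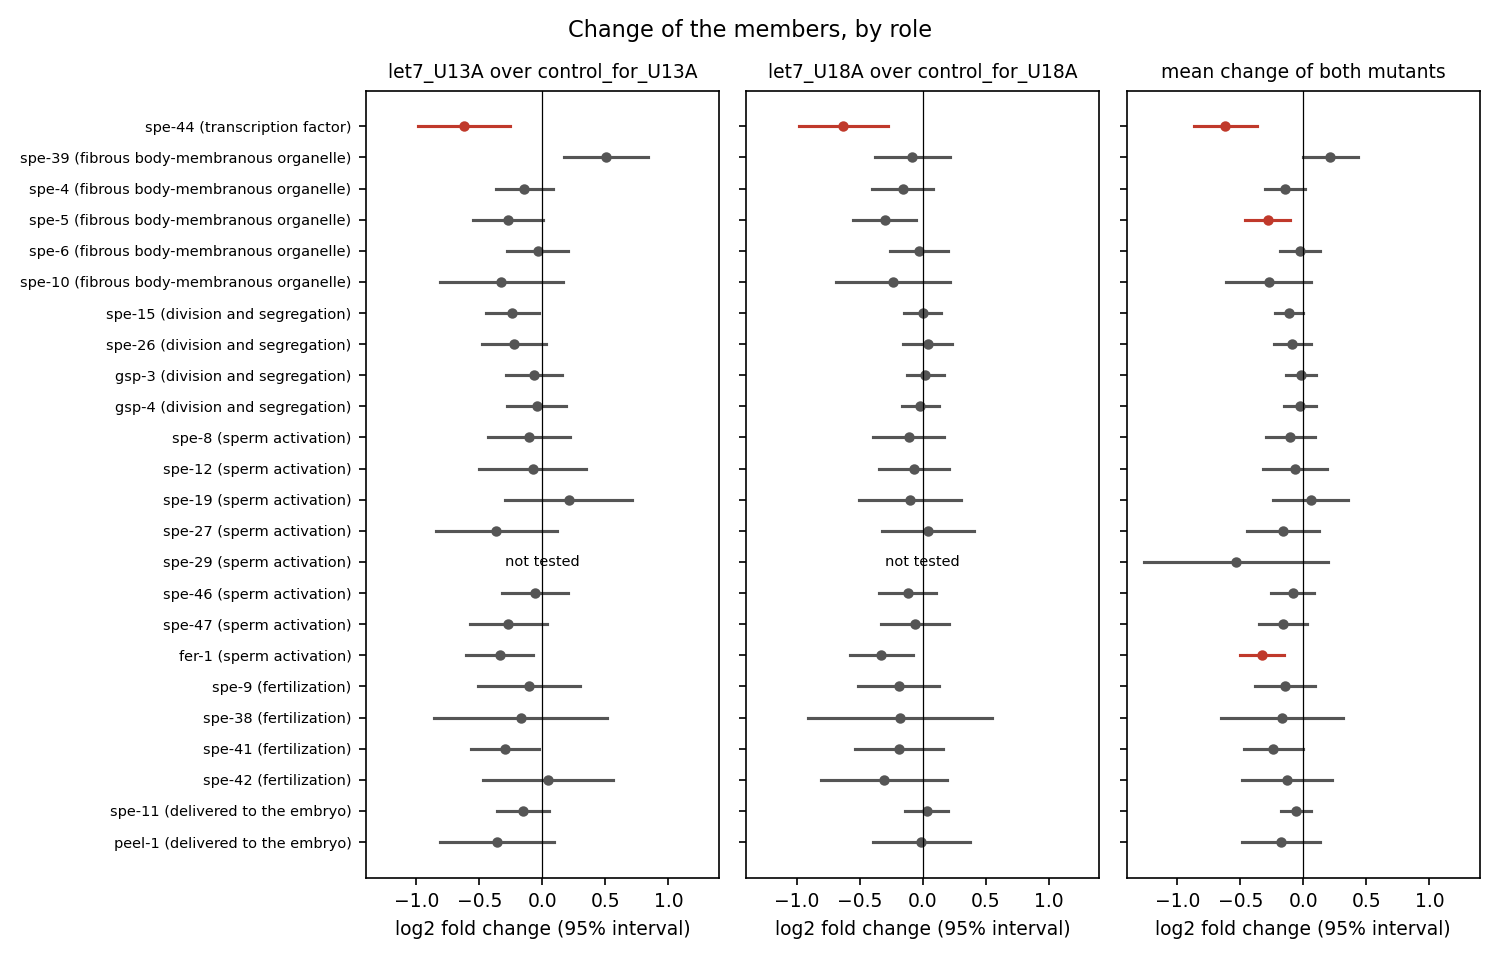
Log2 fold change of 24 of the 25 members, mutant over control, with its 95% interval, in the U13A pair, the U18A pair and as the mean change over both, with members grouped by role and calls at an adjusted p under 0.05 in red. spe-44 is red in all 3 panels, fer-1 and spe-5 in the mean change, and most other points lie slightly left of 0 with intervals that cross it.

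spe-44 encodes a SAND-domain transcription factor that turns on many spermatocyte genes, and lies on chromosome IV between positions 12452063 and 12454215 (minus strand). Its level was 4.79, 6.41 and 5.80 CPM in let7_U13A, against 7.38, 8.09 and 11.7 CPM in control_for_U13A. In the other background it stood at 2.75, 3.04 and 4.01 CPM in let7_U18A, against 5.44, 5.56 and 4.99 CPM in control_for_U18A. In both pairs all mutant libraries lay below all control libraries. The 12 libraries held 26 to 250 counts of it each. spe-44 fell by 0.62 on the log2 scale in the U13A pair (SE 0.17, edgeR adjusted p 0.0494) and by 0.63 in the U18A pair (SE 0.16, edgeR adjusted p 0.0221), to 0.651 and 0.646 of the control level. The changes differed by 0.01 (95% interval -0.47 to 0.50). The mean change over both pairs was -0.62 (SE 0.12, edgeR adjusted p 0.00222), and it was called in all 19 alternatives (adjusted p 1.70e-04 to 0.0475).

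The calls of spe-44 within single pairs were less secure. The U13A call was kept in 4 of 14 alternatives (adjusted p 0.0224 to 0.229) and was lost without control_for_U13A replicate B or C or any 1 of the let7_U13A libraries. It was also lost with DESeq2 (0.0647), with at least 10 counts in every sample (0.0533), without robust estimation (0.0609), with the replicate block (0.0814) and after thinning (0.150). The U18A call was kept in 10 of 14 (adjusted p 0.0115 to 0.125) and was lost without control_for_U18A replicate A or B, or let7_U18A replicate A or B.

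The organelle that carries major sperm protein was represented by 6 members. Their log2 fold changes ran from -0.33 to 0.51 in the U13A pair and from -0.30 to -0.03 in the U18A pair, with 0 of 6 called in either. spe-5, a subunit of the proton pump that acidifies the organelle, was at 12.65, 13.60 and 12.47 CPM in let7_U13A, against 12.97, 16.03 and 19.21 CPM in control_for_U13A. spe-5 was at 8.26, 10.7 and 11.8 CPM in let7_U18A, against 12.9, 13.5 and 13.3 CPM in control_for_U18A. The groups overlapped in the U13A pair and did not in the U18A pair. spe-5 lies on chromosome I between positions 5101665 and 5103476 (minus strand). The mean change of spe-5 was -0.28 (SE 0.08, edgeR adjusted p 0.0390), a call kept in 8 of 19 alternatives (adjusted p 0.0144 to 0.0982). Among the settings that ended the call were thinning the libraries to equal depth (0.0684) and leaving out 1 library in 9 of 12 cases, namely control_for_U13A B or C, any control_for_U18A library, let7_U13A A or B, or let7_U18A A or B. spe-5 overlaps ift-20 on the other strand, and strand use in the counting was not stated, so the reads cannot be assigned between them.

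spe-39, which binds a vesicle tethering complex and is used in many tissues besides the germline, was the member with the largest positive estimate in a pair. It was at 9.13, 8.01 and 8.46 CPM in let7_U13A, against 5.12, 5.81 and 7.49 CPM in control_for_U13A, and the groups did not overlap. spe-39 was at 7.51, 7.41 and 7.16 CPM in let7_U18A, against 9.18, 6.96 and 8.18 CPM in control_for_U18A, where the groups overlapped. The log2 fold change in the U13A pair was 0.51 (SE 0.16, edgeR adjusted p 0.0795). That of the U18A pair was -0.08 (edgeR adjusted p 0.796). These changes differed by 0.59 (SE 0.21, 95% interval 0.16 to 1.02), which did not pass the threshold (edgeR adjusted p 0.115).

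spe-4, a presenilin-like protease of the same organelle, was at 29.2, 32.0 and 29.1 CPM in let7_U13A, against 30.9, 32.5 and 39.6 CPM in control_for_U13A. spe-4 was at 21.7, 21.5 and 29.4 CPM in let7_U18A, against 29.7, 25.9 and 28.9 CPM in control_for_U18A. Both pairs overlapped. spe-6, a casein kinase 1-like kinase, was at 20.9, 21.0 and 18.2 CPM in let7_U13A, against 19.5, 18.9 and 25.2 CPM in control_for_U13A. spe-6 was at 19.8, 19.6 and 17.1 CPM in let7_U18A, against 17.6, 19.6 and 22.2 CPM in control_for_U18A. Its groups overlapped in both pairs, with estimates of -0.04 and -0.03 on the log2 scale.

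spe-10, a palmitoyltransferase, lay between 1.91 and 5.24 CPM over all 12 libraries, with overlapping groups in both pairs.

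The 4 members that act in meiotic division and in sorting cell contents had log2 fold changes from -0.24 to -0.05 in the U13A pair and from -0.02 to 0.04 in the U18A pair, with 0 called. None of the 4 was called in the mean change either. gsp-3 was at 157, 160 and 166 CPM in let7_U13A, against 167, 169 and 185 CPM in control_for_U13A. gsp-3 was at 164, 163 and 175 CPM in let7_U18A, against 168, 176 and 167 CPM in control_for_U18A. The U13A groups did not overlap and the U18A groups did. The mean change of gsp-3 was -0.02 (95% interval -0.13 to 0.10).

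gsp-4 was at 130, 136 and 142 CPM in let7_U13A, against 138, 147 and 149 CPM in control_for_U13A. gsp-4 was at 145, 142 and 144 CPM in let7_U18A, against 150, 155 and 147 CPM in control_for_U18A. The U13A groups overlapped, and all let7_U18A libraries lay below all control_for_U18A libraries, but the estimate in the U18A pair was -0.02 (95% interval -0.17 to 0.13). CPM uses the library total, whereas the fitted changes are scaled by the trimmed mean of M-values (TMM), so a small offset in CPM need not appear in the fit.

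spe-15, the myosin VI that sorts contents away from the budding spermatid, was at 121, 129 and 121 CPM in let7_U13A, against 141, 146 and 163 CPM in control_for_U13A. spe-15 was at 126, 120 and 129 CPM in let7_U18A, against 126, 132 and 130 CPM in control_for_U18A. The U13A groups did not overlap, and the estimate there was -0.24 (SE 0.10, unadjusted p 0.0282, edgeR adjusted p 0.198), against 0.00 in the U18A pair. The difference of these changes was -0.24 (SE 0.10, edgeR adjusted p 0.236). spe-15 overlaps gst-25 on the other strand. spe-26, a kelch-repeat protein, lay between 15.9 and 26.3 CPM over the 12 libraries.

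Sperm activation was represented by 8 members, of which 7 could be tested in each pair. Their log2 fold changes ran from -0.37 to 0.21 in the U13A pair and from -0.33 to 0.04 in the U18A pair, with 0 called. fer-1, the dysferlin homologue that fuses the organelles with the plasma membrane, was at 14.9, 16.98 and 13.83 CPM in let7_U13A, against 17.01, 18.31 and 24.37 CPM in control_for_U13A. fer-1 was at 9.74, 12.7 and 12.5 CPM in let7_U18A, against 16.4, 15.2 and 14.2 CPM in control_for_U18A. All mutant libraries lay below all controls in both pairs, with a narrow gap in the U13A pair.

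fer-1 lies on chromosome I between positions 8623012 and 8631202 (minus strand). Within a pair it did not pass, with log2 fold changes of -0.34 for let7_U13A (SE 0.12, edgeR adjusted p 0.150) and -0.33 for let7_U18A (SE 0.12, edgeR adjusted p 0.0948). The mean change was -0.33 (SE 0.08, 95% interval -0.50 to -0.15, edgeR adjusted p 0.0151), and it was called in all 19 alternatives (adjusted p 0.00874 to 0.0489).

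spe-46, linked genetically to the timing of activation, was at 30.8, 31.7 and 25.0 CPM in let7_U13A, against 25.7, 30.5 and 37.5 CPM in control_for_U13A. spe-46 was at 20.6, 23.3 and 29.9 CPM in let7_U18A, against 26.5, 28.1 and 28.9 CPM in control_for_U18A. Both pairs overlapped. spe-47, a protein with a major sperm protein domain, was at 8.61, 7.86 and 8.95 CPM in let7_U13A, against 9.76, 10.4 and 11.3 CPM in control_for_U13A. spe-47 was at 7.30, 6.81 and 8.19 CPM in let7_U18A, against 8.33, 8.39 and 7.42 CPM in control_for_U18A. Its groups did not overlap in the U13A pair and overlapped in the U18A pair, and neither estimate passed (edgeR adjusted p 0.347 and 0.838).

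The remaining activation members, the tyrosine kinase spe-8 and the small or membrane proteins spe-12, spe-19, spe-27 and spe-29, lay between 0.286 and 10.4 CPM over the 12 libraries. spe-29, testable only in the fit of all 12 libraries, had a mean change of -0.54 with an interval from -1.26 to 0.19. It overlaps gon-1 on the other strand.

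The 4 members that act at fertilization had log2 fold changes from -0.30 to 0.04 in the U13A pair and from -0.31 to -0.18 in the U18A pair, with 0 called. spe-9, a surface protein with epidermal growth factor repeats, was at 5.69, 4.19 and 4.18 CPM in let7_U13A, against 4.76, 4.40 and 6.24 CPM in control_for_U13A. spe-9 was at 3.81, 4.15 and 3.61 CPM in let7_U18A, against 4.40, 4.45 and 4.73 CPM in control_for_U18A. Its groups overlapped in the U13A pair and not in the U18A pair.

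spe-41, a calcium channel of the TRPC family, was at 12.3, 12.8 and 12.4 CPM in let7_U13A, against 13.3, 14.9 and 19.2 CPM in control_for_U13A. spe-41 was at 9.42, 7.85 and 14.4 CPM in let7_U18A, against 12.3, 12.0 and 13.7 CPM in control_for_U18A. The U13A groups did not overlap (log2 fold change -0.30, SE 0.13, edgeR adjusted p 0.227). In the U18A pair the estimate was -0.19 (edgeR adjusted p 0.566), and without let7_U18A replicate C, the high library, it was -0.50 and was called (edgeR adjusted p 0.0300, over the 14 alternatives 0.0300 to 0.998).

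spe-42, a membrane protein related to DC-STAMP, was at 3.29, 2.59 and 1.95 CPM in let7_U13A, against 2.02, 2.51 and 3.08 CPM in control_for_U13A. spe-42 was at 1.38, 2.22 and 2.12 CPM in let7_U18A, against 2.22, 2.11 and 3.20 CPM in control_for_U18A. Both pairs overlapped. spe-38, a membrane protein of the sperm surface, was at 0.973, 1.19 and 0.651 CPM in let7_U13A, against 0.833, 1.02 and 1.41 CPM in control_for_U13A. spe-38 was at 0.529, 0.444 and 0.974 CPM in let7_U18A, against 0.615, 0.868 and 0.863 CPM in control_for_U18A. Both pairs overlapped, and at 5 to 39 counts per library its interval reached from -0.91 to 0.55 in the U18A pair.

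Both proteins that sperm deliver to the embryo were uncalled in each pair. spe-11 was at 55.2, 60.2 and 51.6 CPM in let7_U13A, against 60.8, 61.2 and 69.4 CPM in control_for_U13A. spe-11 was at 54.8, 62.2 and 57.1 CPM in let7_U18A, against 53.6, 59.8 and 62.7 CPM in control_for_U18A. The U13A groups did not overlap (log2 fold change -0.16, 95% interval -0.36 to 0.05), and the U18A groups did. peel-1, a toxin that sperm carry into the embryo, was at 4.49, 5.63 and 2.87 CPM in let7_U13A, against 5.35, 5.19 and 6.74 CPM in control_for_U13A. peel-1 was at 5.398, 3.778 and 7.105 CPM in let7_U18A, against 5.58, 5.65 and 5.95 CPM in control_for_U18A. Both pairs of peel-1 overlapped, with estimates of -0.36 and -0.01 on the log2 scale.

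**Figure D3:**
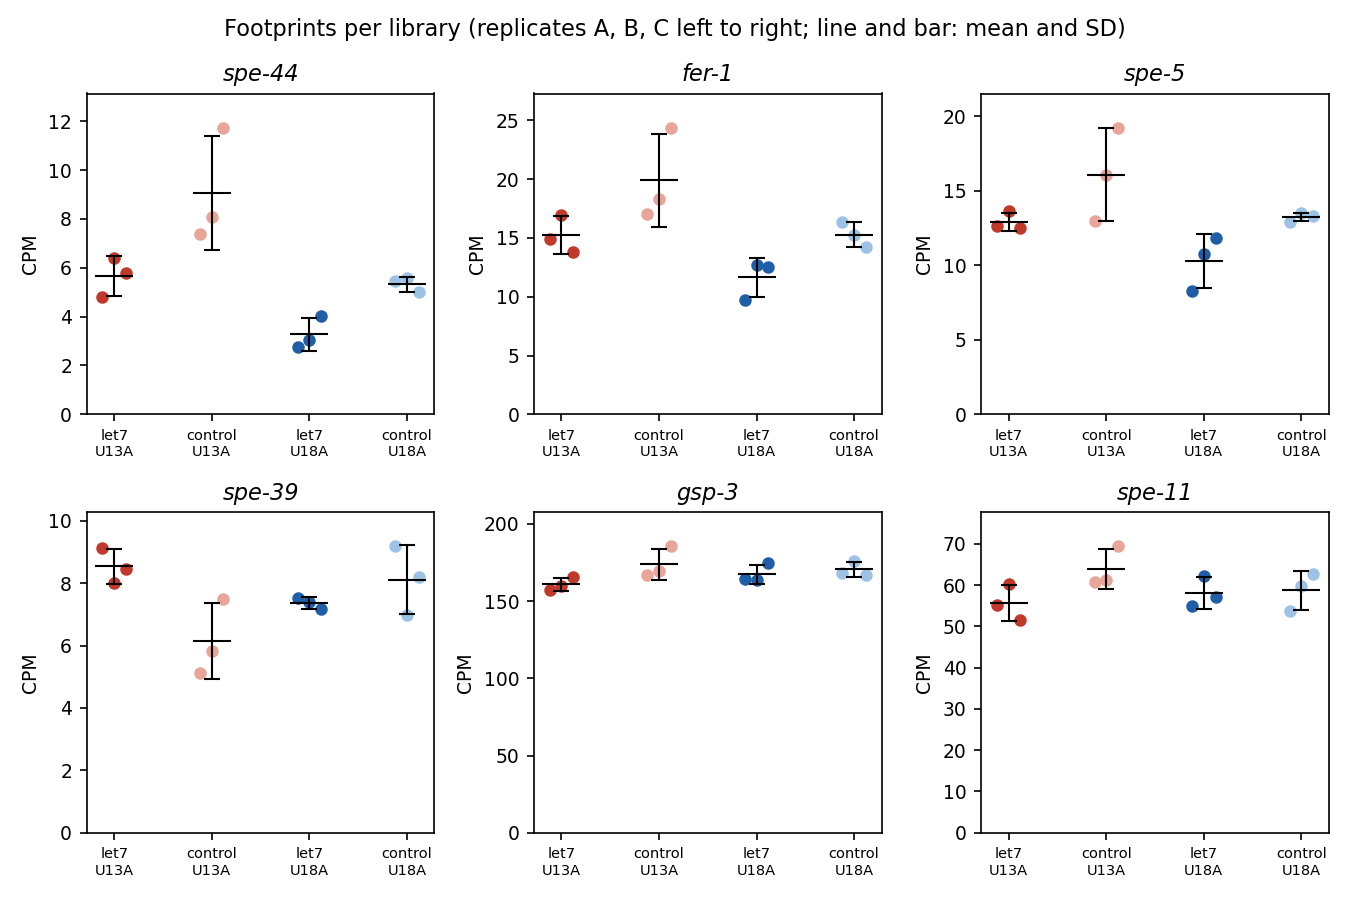
CPM in each library, with the mean and SD of each group of 3, for spe-44, fer-1, spe-5, spe-39, gsp-3 and spe-11. spe-44 and fer-1 sit lower in both mutants than in their controls, spe-39 is higher in let7_U13A than in control_for_U13A, and gsp-3 stays between 157 and 185 CPM in all 12 libraries.

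The 2 control strains, which carry no let-7 allele change, also differed in some members, though in a smaller share of them than of all genes. Of the 25 members, spe-44, fer-1 and spe-47 were higher and spe-39 lower in control_for_U13A than in control_for_U18A, 16.0% called, against 25.0% of all genes (11.6% higher and 13.4% lower). spe-44 averaged 9.07 ± 2.33 CPM in control_for_U13A and 5.33 ± 0.303 CPM in control_for_U18A (SD, n = 3 each), which is 0.74 higher on the log2 scale (SE 0.15, edgeR adjusted p 0.00207) and was called in all 19 alternatives. fer-1 differed by 0.35 (edgeR adjusted p 0.0314, called in 14 of 19), spe-47 by 0.35 (0.0466, 7 of 19) and spe-39 by -0.41 (0.0488, 5 of 19). The fer-1 call was lost without control_for_U13A B or C or control_for_U18A B or C (adjusted p up to 0.182), and after thinning (0.279). The spe-47 call was lost without any 1 of the control libraries, let7_U13A A or let7_U18A B. It was also lost with DESeq2, with no count filter, with the replicate block and after thinning the libraries to equal depth. When libraries were left out in turn, the spe-39 call was kept in 2 of 12 cases, without control_for_U18A B and without let7_U13A B, and it was also kept with at least 10 counts in every sample, without robust estimation and after thinning (adjusted p 0.00588). The strain background is not separated from any batch of the 2 tables. Stage and germline markers, described below, also differed between these controls. In control_for_U13A, 9 of 10 molting genes were called lower (median log2 difference -1.89), as were 8 of 10 oocyte genes (median -1.24). Of 10 genes of germ cells in general, 7 were called higher there (median 0.29). The part of stage and germline content in the differences of the members was not tested. The comparison of the controls and the U13A and U18A changes use the same control libraries.

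Other sperm-line genes were measured beside the members. The msp genes, near copies that may exchange reads, had 31 of 35 rows with counts and 0 calls in either pair, with medians of -0.12 (U13A pair) and -0.15 (U18A pair). Estimates were below 0 for 30 of the 31 msp genes in each pair, so the lean below 0 was not particular to the members. At an unadjusted p under 0.05 there were 2 of 31 in the U13A pair and 5 of 31 in the U18A pair. Of 18 testable genes in a list of other sperm genes, 0 were called in the U13A pair, with 3 at an unadjusted p under 0.05, and 1 in the U18A pair, with 8 at that p. Over all genes, 2358 of 12874 in the U13A pair and 3112 of 13614 in the U18A pair had an unadjusted p under 0.05. The called gene, also called without any 1 library of the pair, was fog-3, which directs germ cells to become sperm, with a change of -0.95 on the log2 scale (SE 0.20, edgeR adjusted p 0.00594). In the mean change, 4 of the 18 were called lower (22.2%, against 6.05% of all genes) and 0 higher. They were cpb-1, which encodes a cytoplasmic polyadenylation element binding protein (-0.46, edgeR adjusted p 0.0137), the Argonautes alg-4 (-0.20, 0.0256) and alg-3 (-0.18, 0.0450), and fog-3 (-0.47, 0.0461). The groups of fog-3 overlapped in the U13A pair, at 4.04 to 5.54 CPM in let7_U13A and 4.16 to 6.57 CPM in control_for_U13A. They did not in the U18A pair, at 1.48 to 2.52 CPM in let7_U18A and 3.74 to 4.64 CPM in control_for_U18A. Over the 12 fits without 1 library, cpb-1 was called in 11 (lost without let7_U18A B), alg-4 in 7, fog-3 in 4 and alg-3 in 3. All 4 were lost without let7_U18A B, and all but cpb-1 without control_for_U13A C, control_for_U18A A or let7_U13A A or B.

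A set of 11 further genes that newer catalogues name spe, matched by locus name after the tables were seen, had 0 calls in either pair and in the mean change, with medians of 0.03 (U13A pair) and -0.03 (U18A pair). None had an unadjusted p under 0.05 in a pair. Of the 10 genes of germ cells in general, 0 were called in either pair, with medians of -0.13 (U13A pair) and 0.13 (U18A pair).

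Markers of oocytes and of the molting stage differed between mutants and controls in many genes. Of 10 oocyte genes, 8 rose in the U13A pair, with a median of 0.87, and all 10 in the U18A pair, with a median of 0.93. rme-2, the yolk receptor of oocytes, changed by 1.29 in the U13A pair (edgeR adjusted p 0.00148) and by 0.95 in the U18A pair (edgeR adjusted p 6.81e-05). The oocyte list summed to 782 to 1030 CPM in let7_U13A and 652 to 957 CPM in control_for_U13A, and to 1508 to 1660 CPM in let7_U18A and 972 to 1156 CPM in control_for_U18A. Of 10 molting genes, 2 rose and 0 fell in the U13A pair and 9 fell in the U18A pair. The molting list summed to 362 to 506 CPM in let7_U13A and 279 to 315 CPM in control_for_U13A, and to 512 to 533 CPM in let7_U18A and 1021 to 1430 CPM in control_for_U18A. Of 4 genes of the somatic gonad, 0 were called in either pair, with 0 (U13A pair) and 1 (U18A pair) at an unadjusted p under 0.05. The 4 male markers summed to 0.651 to 0.973 CPM in let7_U13A and 0.476 to 0.943 CPM in control_for_U13A, and to 0.847 to 1.63 CPM in let7_U18A and 2.31 to 2.85 CPM in control_for_U18A. The sums overlapped in the U13A pair and not in the U18A pair, where mab-3, the 1 male marker with enough counts to test, fell by 0.98 on the log2 scale (SE 0.26, edgeR adjusted p 0.0272). mab-3 was also lower in control_for_U13A than in control_for_U18A, with a log2 difference of -2.74 (edgeR adjusted p 1.87e-05). With 1 of the 4 male markers tested, these values do not measure male content. The part of oocyte content, male markers and stage in the values of spe-44, fer-1 and spe-5 was not tested. With the libraries thinned to equal depth, the mean change was -0.50 for spe-44 (edgeR adjusted p 0.0475), -0.38 for fer-1 (0.0190) and -0.32 for spe-5 (0.0684).

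**Figure D4:**
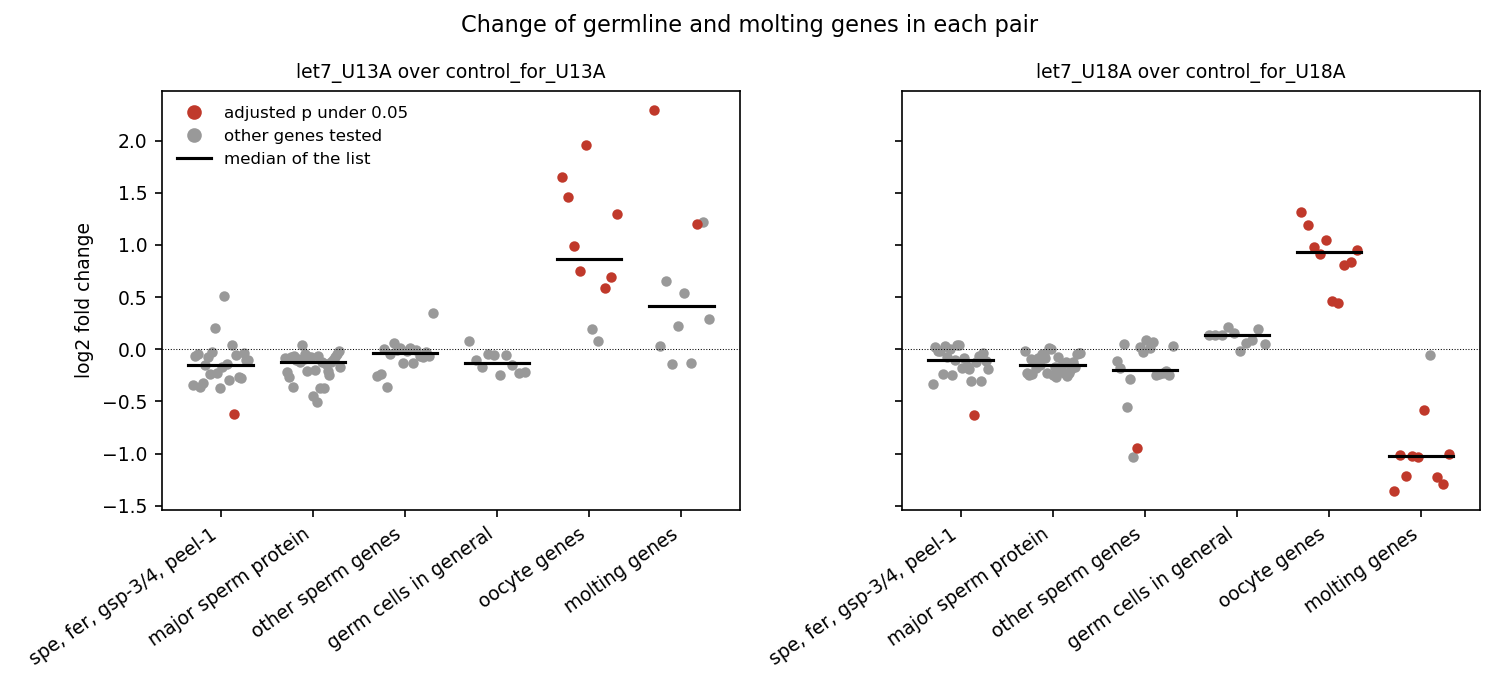
Log2 fold change, mutant over control, of each gene of the members, the msp genes, other sperm genes, germ cell genes, oocyte genes and molting genes, in the U13A pair and the U18A pair. The sperm-line lists lie near or slightly below 0, the oocyte genes lie above 0 in both pairs, and the molting genes lie mostly above 0 in the U13A pair and below 0 in the U18A pair.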

How the data were processed

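The authors deposited raw footprint counts per gene, with no normalization, in 2 tables, 1 per mutant and its control. Per the submitters' processing notes, cutadapt 1.9, Bowtie2 2.3.4.3 and build WBcel235 were used. The counting tool, annotation, strand use and handling of multiply matching reads are not given in the sources used here. All 12 columns matched 1 sample each.

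Genes passing filterByExpr were fitted in edgeR 4.0.16 (R 4.3.3) with TMM scaling and a robust quasi-likelihood model, and p-values were adjusted over all genes after Benjamini and Hochberg, with calls under 0.05. Each pair was fitted alone. The difference, the mean change and the 2 controls were contrasts over all 12 libraries. CPM used the library total, and per kb values the coding length in Ensembl release 115. With 3 libraries against 3, exact permutation of 1 gene cannot reach a p under 0.10, so none was run. The fits were tested on simulated data. Alternatives were DESeq2 1.42.0, other scaling, filters, a replicate block, thinning and leaving out each library.

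The members, lists and tests were chosen with earlier results of these data known. Per-library values were given for members called in any test, the 8 highest per kb, 10 members named at the outset and the 6 with the smallest p in each pair. 1 member, included in the counts, is not reported here by name.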

Additional observations from a re-analysis of the deposited data

Results flagged for a closer look

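Outside the members, the changes in the U13A and U18A pairs differed for 9 of the 10 molting genes and for 1 of the 10 germ cell genes in the test of the difference itself (edgeR quasi-likelihood, Benjamini-Hochberg adjusted over all genes). The median difference over the molting genes was 1.28 on the log2 scale, higher in the U13A pair. The germ cell gene was pgl-3, a P granule protein, with a log2 fold change of -0.23 in the U13A pair, 0.19 in the U18A one and a difference of -0.42 (SE 0.12, edgeR adjusted p 0.0449). The pgl-3 call was kept in 1 of the 12 fits without 1 library, the one without control_for_U13A A (adjusted p 0.0292 to 0.126 over them).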

How the results depend on the processing

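The 1 member called in the U13A pair became 0 with DESeq2, with at least 10 counts in every sample, without robust estimation, with the replicate block and after thinning, and 2 (spe-39 higher, spe-44 lower) with all 12 libraries in 1 fit. Leaving out 1 library gave 0 to 1. The 1 member called in the U18A pair gave 0 to 2 when a library was left out. The 3 members called in the mean change became 2 with the replicate block and after thinning, and 2 to 4 when a library was left out. The 4 members called between the controls became 2 with no count filter, with the replicate block and after thinning, and 1 to 4 when a library was left out. The replicate block ended the call of spe-44 in the U13A pair (adjusted p 0.0814) and of spe-5 in the mean change (adjusted p 0.0661). The cause was not tested. No member was called in the difference under any of these alternatives. Whether replicate letters pair the samples is not known. Correlations of deviations between same-lettered libraries were -0.03, 0.02 and -0.36 in the U13A pair and 0.14, -0.01 and 0.13 in the U18A pair. Between libraries of different letters they ran from -0.37 to 0.38 (U13A pair) and from -0.14 to 0.02 (U18A pair). With 3 libraries per group these values cannot settle the question. With the block, calls over all genes went from 726 to 424 in the U13A pair and from 1478 to 1701 in the U18A pair. Among 2082 single-member values under an alternative, 0 reversed a called direction, 56 lost a call, 6 gained one and 136 uncalled estimates changed sign. Thinning was a single random draw. Low counts limit spe-29 and spe-38. On their own strand, spe-38 overlaps impt-1 and spe-27 overlaps C06E7.88. On the other strand, spe-9 overlaps C17D12.5 and spe-26 overlaps R10H10.3. How reads were shared in these overlaps is not known.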
